A study of Mus musculus with 8 samples.

Results

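Long intergenic noncoding RNAs (lincRNAs) are transcripts from outside protein-coding genes that are annotated as noncoding. Many are spliced and polyadenylated, and some stay in the nucleus, where Malat1 marks speckles and Neat1 holds paraspeckles together. Others are the precursors of small RNAs: the microRNAs (miRNAs) or small nucleolar RNAs (snoRNAs) lie inside them and are cut out, and the rest of the transcript is the host RNA. In macrophages and microglia, a few lincRNAs are known to follow interferon or endotoxin signals, AW112010 among them.

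The genes described here are the 149 autosomal lincRNA genes of GENCODE mouse M21 (chromosomes 1 to 19) with a mean CPM of at least 2 over 8 libraries (CPM is a gene's count scaled to the total of its library). They were selected on that measured level, so their being expressed is not a result. The deposited table held 4982 autosomal lincRNA genes, of which 3087 had 0 counts in all libraries and 321 could be tested. All 149 were among the 17537 genes tested. The lowest inside the threshold were Gm38948, Gm7160 and Gm20342, at mean CPM 2.06, 2.03 and 2.00. The nearest outside it were Gm17705, C030037D09Rik and AC166110.4, at 1.97, 1.96 and 1.95.

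The libraries came from primary microglia of wild-type mice, grown from the neocortex and hippocampus of newborn pups (P0) whose brains were pooled in mixed culture flasks. The microglia were shaken off, replated, and on day 15 in vitro (DIV15) either received 10 µg/ml IgG for 24 h (4 libraries) or served as controls (4 libraries), which the labels call untreated and the study's methods describe as given PBS. Each IgG library has a control library of the same number and date, and these 4 pairs are called pairs 1 to 4. The study asked what IgG does to the transcripts of cultured microglia; the strain of these cultures is not given in the labels, and whether the dates stand for separate dissections is not stated, so p-values measure the spread between these libraries.

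Library totals ran from 21287816 to 23703216 counts, and 3 counts correspond to 0.124 to 0.147 CPM on the TMM scale (trimmed mean of M-values), in which levels are given. Summed levels of 12 microglial markers were 7662 to 8626 CPM in controls and 8776 to 9272 CPM with IgG, but of the homeostatic markers P2ry12 reached no more than 16.0 CPM and Siglech was at 0 in 3 libraries. All 8 oligodendrocyte-lineage markers were detected in every library (summed level 1071 to 1683 CPM in controls and 905 to 1587 with IgG), as were the 8 astrocyte markers (171 to 196 and 149 to 191 CPM). The 5 markers of border-associated macrophages summed to 217 to 308 CPM in controls and 309 to 441 with IgG, so every IgG library lay above every control. Of the markers in that list, Cd163 and Lyve1 were at 0 or at most 0.226 CPM, and Ms4a7 gave most of the sum (161 to 335 CPM). Mrc1 measured 72.62, 70.13, 75.03 and 50.56 CPM in controls 1 to 4 and 101.4, 73.52, 98.56 and 42.7 with IgG. For Mrc1, IgG libraries 1 and 3 lay above every control, IgG library 2 within the control range and IgG library 4 below every control. The part of border-associated macrophages in the higher lincRNAs was not tested. Mitochondrially encoded genes took 1.97% to 2.41% of counts in 6 libraries but 4.85% in IgG library 1 and 5.59% in IgG library 3. Because these are bulk samples, fewer cells of a type and less RNA per cell cannot be told apart.

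Few lincRNAs passed the tests, and few genes did over the whole table. With edgeR's quasi-likelihood test and the pair as a block, 2 of the 149 rose past an adjusted p of 0.05, AW112010 and Gm36161. That is 1.34% of them, beside 0.393% of all genes tested. None fell by this test, and 0% of all genes tested did. DESeq2 and limma-voom, also with the block, placed 0 of the 149 lower past adjustment. At an unadjusted p below 0.05 in the same test, 10 lincRNAs were higher (6.71%) and 7 lower (4.70%), beside 6.35% and 3.85% of all genes tested. The study's own criterion was an unadjusted p below 0.01 with a log2 fold change beyond 0.5. By it, 4 were higher (AW112010, Gm36161, Gm44148 and 2310001H17Rik) and 0 were lower. These are 2.7% and 0% of the 149, against 1.48% and 0.342% of all genes. Without the block, 0 of the 149 passed adjustment in either direction, and 0% of all genes did; 9 lincRNAs then had an unadjusted p below 0.05 upwards and 1 downwards, beside 4.83% and 2.18% of all genes tested. The criterion without the block took AW112010 alone, where the shares over all genes were 0.582% higher and 0.262% lower.

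AW112010 (ENSMUSG00000075010, chr19:11047612-11055808, GRCm38, minus strand) is known as a transcript that macrophages raise after interferon or endotoxin. Its exons overlap those of no other gene. Control levels were 10.6, 13.3, 8.42 and 8.92 TMM CPM in pairs 1 to 4, and IgG levels were 20.7, 19.5, 15.8 and 15.8. Every IgG library lay above every control library. The means were 10.3 ± 2.21 and 18.0 ± 2.52 TMM CPM (SD, n = 4), and the log2 fold change was 0.81 (SE 0.12, edgeR adjusted p = 0.0362), higher in 4 of 4 pairs. No coding gene lies closer than Ms4a8a, 11663 bases away. Among the genes tested within 200 kb, Ptgdr2, a prostaglandin D2 receptor gene, had a log2 fold change of 0.86 (SE 0.22, adjusted p = 0.236) from a level of 1.38 to 1.81 TMM CPM in controls. Slc15a3, a lysosomal peptide transporter gene at 577 to 732 TMM CPM, stood at 0.10 (SE 0.09). Within pairs the log2 changes of AW112010 were 0.96, 0.55, 0.90 and 0.82, and with pairs 2 and 4 alone it was 0.69. The call was lost when pair 1, 2 or 3 was left out (adjusted p = 0.176, 0.207 and 0.154) and when libraries were scaled by total counts (adjusted p = 0.0741).

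Gm36161 (ENSMUSG00000114608, chr13:120010390-120018931, plus strand) had the greatest fold change of the 149. Control levels were 28.8, 8.48, 25.9 and 3.49 TMM CPM in pairs 1 to 4, and IgG levels were 66.0, 18.3, 63.1 and 9.74. The groups overlap because the pairs start from different levels, yet within each pair the IgG library was higher, by 1.19, 1.10, 1.28 and 1.46 on the log2 scale. The paired log2 fold change was 1.26 (SE 0.10, adjusted p = 0.00593). Without the block the estimate was 1.23 with an SE of 0.71 (adjusted p = 0.698), and without pair 2 it was 1.31 (adjusted p = 0.117). The gene cannot be read as a transcript of its own with certainty. Its longest transcript aligned over 100% of its length, at 95.7% identity, to transcripts of the neighbouring coding gene Gm21188, and its exons share 165 bases with the pseudogene Gm21370 on the opposite strand. Gm21188 showed a like pattern, with control levels of 38.0, 12.1, 36.5 and 7.11 TMM CPM and IgG levels of 80.5, 23.2, 77.2 and 11.2 (log2 fold change 0.95, SE 0.11, adjusted p = 0.0145). Gm21370 stood at 1.07 (SE 0.18, adjusted p = 0.0596) and Gm36079, a coding gene between them, at 1.03 (SE 0.21, adjusted p = 0.118). The nearby pseudogene Gm31544 stood at 0.72 (SE 0.19, adjusted p = 0.289). These 4 neighbours were each higher in 4 of 4 pairs.

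Gm44148 (chr6:121255203-121272685, minus strand) and 2310001H17Rik (chr6:129208412-129238725, minus strand) met the criterion but did not pass adjustment in the paired quasi-likelihood test. With the block kept, Gm44148 passed with edgeR's likelihood ratio test (adjusted p = 0.00227), DESeq2 (0.0133) and no filter on low counts (0.00424). 2310001H17Rik passed with the likelihood ratio test (adjusted p = 0.044). Without the block neither passed (edgeR adjusted p = 0.692 for both). Gm44148 measured 9.70, 8.70, 8.0 and 5.90 TMM CPM in controls and 19, 10.7, 16.4 and 9.06 with IgG, so that 1 of the 4 IgG libraries lay below the highest control (log2 fold change 0.73, SE 0.15, adjusted p = 0.128). Of its 316 exonic bases 39.2% lie antisense to Usp18, which encodes the protease that removes ISG15 and is itself induced by interferon. Usp18 held 7997 counts to the 1944 of Gm44148 and rose by 0.68 (SE 0.10, adjusted p = 0.035), and since counting did not separate strands (the counts of Gm26619 show this) the reads of the 124 shared bases cannot be assigned to either gene; they make up 4.44% of the exonic bases of Usp18. 2310001H17Rik measured 3.69, 2.17, 3.02 and 2.67 TMM CPM in controls and 6.06, 4.44, 4.61 and 3.23 with IgG. Of its IgG libraries only that of pair 4 lay within the control range (log2 fold change 0.66, SE 0.18, adjusted p = 0.284). It lies among the lectin-like receptor genes. Its neighbour Cd69, an early activation receptor gene, had a log2 fold change of 1.12 (SE 0.21, adjusted p = 0.0851), and the nearest coding gene, Clec2d, of -0.27 (SE 0.35).

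**Figure D1:**
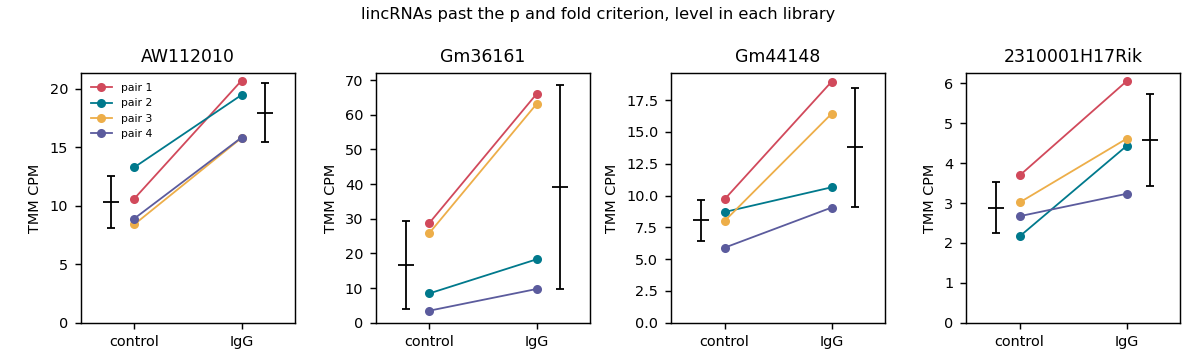
Level (TMM CPM, linear axis from 0) of the 4 lincRNAs past the p and fold criterion in each library, with lines joining the control and IgG library of a pair and black bars for mean ± SD (n = 4). All 4 are higher with IgG in every pair, and Gm36161 runs from 3.49 to 28.8 among the controls.

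To show the sequence at the start of the genes that met the p and fold criterion and have a RefSeq entry, 300 bases around the RefSeq start site (250 before, 50 after, GRCm38.p6) are printed 5′ to 3′ on the gene's strand. RefSeq promoter windows were found for 71 of the 149 lincRNAs by symbol or synonym. They were searched on both strands for a core of the interferon-stimulated response element, GAAANNGAA, and for the gamma-activated site, TTCNNNGAA, and matches are in capitals. The RefSeq start of AW112010 lies within the longer GENCODE gene, and its window is chr19:11050517-11050816. The windows of Gm36161 and of the upstream start of 2310001H17Rik are chr13:120010092-120010391 and chr6:129238433-129238732.
AW112010: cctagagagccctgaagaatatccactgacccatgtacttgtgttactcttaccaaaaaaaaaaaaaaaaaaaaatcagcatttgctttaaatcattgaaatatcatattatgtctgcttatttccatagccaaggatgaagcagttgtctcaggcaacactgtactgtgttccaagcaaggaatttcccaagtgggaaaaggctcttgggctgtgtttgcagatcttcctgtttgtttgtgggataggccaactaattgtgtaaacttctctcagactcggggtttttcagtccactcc
Gm36161: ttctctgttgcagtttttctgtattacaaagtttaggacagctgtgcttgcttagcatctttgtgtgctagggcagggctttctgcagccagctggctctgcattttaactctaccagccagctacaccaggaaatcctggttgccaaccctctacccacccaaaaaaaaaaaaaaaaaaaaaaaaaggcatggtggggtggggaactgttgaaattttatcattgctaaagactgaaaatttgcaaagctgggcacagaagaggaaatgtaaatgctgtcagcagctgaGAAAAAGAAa
2310001H17Rik: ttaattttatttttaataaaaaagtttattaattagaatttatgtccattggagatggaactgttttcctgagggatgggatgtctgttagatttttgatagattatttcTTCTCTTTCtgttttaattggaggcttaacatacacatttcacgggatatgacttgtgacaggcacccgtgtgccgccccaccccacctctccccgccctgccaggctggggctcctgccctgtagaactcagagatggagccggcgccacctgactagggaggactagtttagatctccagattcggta
The element core was found in the windows of Gm36161 and 2310001H17Rik and not in these letters of AW112010, and the gamma-activated site in none of the 3. A second RefSeq start of 2310001H17Rik (window chr6:129237996-129238295, not printed) held neither motif. Over all 32851 promoter windows 8.56% held the element core and 8.3% the gamma-activated site, and over the 88 windows of the lincRNAs the shares were 7.95% and 6.82%.

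The other rises and falls did not pass adjustment in the paired quasi-likelihood test. Only AW112010 and Gm20300 had every IgG library above every control, and only Pvt1 every IgG library below, beside 2.60% and 1.57% of all genes tested. Gm20300 measured 5.77, 5.73, 5.57 and 5.38 TMM CPM in controls and 7.77, 5.87, 7.17 and 6.56 with IgG (log2 fold change 0.28, SE 0.14, adjusted p = 0.528). Pvt1, the lincRNA next to the Myc gene, measured 6.30, 5.50, 5.57 and 7.11 in controls and 3.98, 5.35, 5.11 and 5.05 with IgG (log2 fold change -0.33, SE 0.16, adjusted p = 0.523). In direction alone, 10 lincRNAs were higher in all 4 pairs and 9 lower in all 4, which is 6.71% and 6.04% of them, against 10.4% and 8.47% of all genes tested. Besides Gm20300 and the 4 genes past the criterion, Gm44751 was among those higher in all pairs, at 12.5, 12.1, 11.6 and 8.70 TMM CPM in controls and 25.2, 12.9, 25.2 and 9.92 with IgG (log2 fold change 0.61, SE 0.19, adjusted p = 0.368). Its IgG values stand high in pairs 1 and 3 only. Gm44751 begins 590 bases from the end of Ctsc, the gene of cathepsin C, which had a log2 fold change of 0.45 (SE 0.09, adjusted p = 0.11). Among those lower in all pairs, the estimates farthest below 0 were those of Gm26953 (-0.65, SE 0.24, adjusted p = 0.456), 2900076A07Rik (-0.45), Gm16499 (-0.41, SE 0.19), Pvt1 and Gm37168 (-0.30, SE 0.18). Of the exonic bases of Gm26953 49.9% lie antisense to Miat, a brain lincRNA, and 39.4% of those of Gm16499 antisense to Tril, so their reads cannot be assigned to either gene there.

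As a whole the 149 lincRNAs leaned downwards. Their median log2 fold change was -0.12, with 97 below 0 and 52 above, where the median over all genes tested was -0.01 and 49.1% of these were above 0. Other noncoding classes at the same minimum level stood alike, at -0.09 for 695 antisense genes, -0.09 for 189 processed transcripts and -0.17 for 39 bidirectional-promoter RNAs, and 11543 autosomal coding genes at 0.01. The lean was not the same at every level. It was -0.15 for the 65 lincRNAs at 2 to 5 CPM and -0.14 for the 60 at 5 to 20 CPM, where coding genes had -0.09 and -0.03, and 0.06 for the 24 at 20 CPM or more, where coding genes had 0.04. It was also not the same in every pair: the medians of the lincRNAs were -0.16, 0.02, -0.11 and 0.04 in pairs 1 to 4, while those of all genes tested lay between 0.00 and 0.02. The other noncoding classes were likewise lower in pairs 1 and 3: the medians were -0.10, 0.01, -0.15 and -0.05 for antisense genes, -0.15, -0.00, -0.14 and 0.08 for processed transcripts, and -0.29, 0.02, -0.20 and -0.08 for bidirectional-promoter RNAs. With pairs 2 and 4 alone, an alternative chosen after the data were seen, the median was 0.01. Leaving out IgG library 1 or 3 alone (no block) gave -0.05 and -0.06, and leaving out pair 1 or 3 gave -0.08 in each case. By comparison, the 89 interferon-stimulated genes tested had a median of 0.63, with 22 higher and 0 lower past adjustment.

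**Figure D2:**
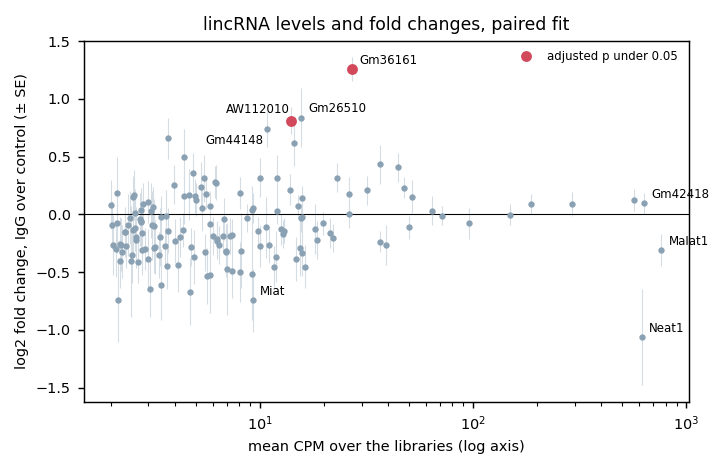
Log2 fold change of each of the 149 lincRNAs (paired edgeR fit, bars ± SE) against its mean CPM over the 8 libraries on a log axis. Red points passed adjustment; Neat1 and Malat1 lie below 0 at the high end, and most lincRNAs below 20 CPM lie under the line.

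Several nuclear and small-RNA host transcripts were low with IgG in pairs 1 and 3 and not in pairs 2 and 4. Neat1, the scaffold of paraspeckles (chr19:5824708-5845478), measured 658, 774, 715 and 801 TMM CPM in controls. With IgG it measured 134, 708, 179 and 897. The IgG libraries of pairs 1 and 3 thus stood far below every control, and those of pairs 2 and 4 stood beside them. The log2 changes within pairs were -2.3, -0.13, -2.0 and 0.16, and the paired estimate of -1.06 (SE 0.42) did not pass (adjusted p = 0.465). With no filter on low counts, over 31368 genes, Neat1 did pass at -1.07 (SE 0.22, adjusted p = 0.00270). Malat1, the speckle RNA encoded near Neat1 on the same strand, was the most abundant lincRNA and followed another order. Its controls measured 831, 855, 754 and 888 TMM CPM and its IgG libraries 554, 935, 662 and 591, with low values in pairs 1, 3 and 4 (log2 fold change -0.31, SE 0.14, adjusted p = 0.498). Miat, which also stays in the nucleus, measured 7.88, 12.2, 11.5 and 11.9 TMM CPM in controls and 3.05, 10.3, 3.78 and 12.1 with IgG (log2 fold change -0.74, SE 0.27, adjusted p = 0.44; 0.0308 with no filter). It again stood low in IgG libraries 1 and 3. Meg3, from the imprinted Dlk1-Dio3 domain, measured 5.06, 6.31, 5.61 and 8.23 in controls and 2.08, 6.0, 2.70 and 8.42 with IgG, the same order of libraries.

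For the 12 lincRNAs that hold an annotated miRNA the median log2 fold change was -0.44; 0 of the 12 were above 0 or past the test. Their medians within pairs were -1.13, 0.05, -0.78 and 0.06. Mir142hg, the host of the miRNA of blood cells miR-142, measured 8.34, 6.77, 8.37 and 6.89 TMM CPM in controls and 2.40, 8.48, 3.14 and 11 with IgG (log2 fold change -0.47, SE 0.40, adjusted p = 0.674). Mir17hg, the host of the miR-17-92 cluster, measured 4.11, 3.47, 4.90 and 3.66 in controls and 1.43, 3.96, 2.01 and 3.64 with IgG (-0.61, SE 0.31, adjusted p = 0.535). Both hosts were low in IgG libraries 1 and 3 and within or above the control range in the other two. E130102H24Rik, which holds miR-101a, followed them at 2.24, 2.98, 2.93 and 2.07 in controls and 0.694, 2.91, 0.834 and 2.23 with IgG. In 10 of the 12 hosts IgG libraries 1 and 3 both lay below every control, as they did in 58 of the 149 lincRNAs and in 26.0% of all genes tested. The exceptions were Gm37233, with pair 1 the highest of its IgG libraries at 4.07, and Gm4675, whose pair changes were -0.75, -0.59, -0.11 and 0.23. The 10 were not alike in pairs 2 and 4. Gm3764 and Mir9-3hg, which each hold a gene of miR-9, changed by -1.30, 0.07, -0.41 and 0.03 and by -0.39, 0.03, -0.53 and 0.11 within pairs. 6720427I07Rik, which holds let-7d, changed by -0.83, 0.45, -0.17 and 0.08 within pairs, while 2900076A07Rik was lower in all 4 pairs (-1.02, -0.18, -0.49 and -0.12) and C130071C03Rik was lower in pair 4 (-0.48) than in pair 1 (-0.18).

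To show what these host RNAs carry, the mature miRNAs of the 2 best-known hosts are printed from RefSeq (GRCm38.p6), with the seed, bases 2 to 8, in capitals. The libraries hold polyadenylated RNA, so the miRNAs themselves were not measured. miR-142a gives a product from each arm of its hairpin, with different seeds (chr11:87756867-87756887 and chr11:87756903-87756925, plus strand). In the miR-17-92 cluster, miR-17-5p and miR-20a-5p share the seed AAAGUGC, and miR-19a-3p and miR-19b-3p share GUGCAAA.
mmu-miR-142a-5p: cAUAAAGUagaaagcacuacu
mmu-miR-142a-3p: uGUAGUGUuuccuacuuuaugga
mmu-miR-17-5p: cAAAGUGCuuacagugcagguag
mmu-miR-20a-5p: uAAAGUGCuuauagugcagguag
mmu-miR-18a-5p: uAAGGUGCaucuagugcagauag
mmu-miR-19a-3p: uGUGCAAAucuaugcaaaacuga
mmu-miR-19b-3p: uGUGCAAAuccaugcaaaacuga
mmu-miR-92a-3p: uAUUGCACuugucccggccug

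The 5 snoRNA hosts gave the widest swings between pairs, with medians of -1.19, 0.14, -1.12 and 0.57. Small Cajal body RNAs were counted as snoRNAs here, and they are what placed Snhg20 and 2900076A07Rik in this group. Snhg12 measured 8.42, 7.89, 10.4 and 7.58 TMM CPM in controls and 3.65, 10.5, 4.52 and 11.3 with IgG. Snhg20, which holds a small Cajal body RNA and a miRNA, measured 11.4, 10.3, 9.67 and 8.79 in controls and 2.73, 11.4, 4.42 and 13.8 with IgG. In both, IgG libraries 1 and 3 lay below every control and IgG libraries 2 and 4 above every one. Epb41l4aos repeated this low level in pairs 1 and 3, at 2.45 and 2.45 with IgG against 6.20 to 6.66 in controls, while Snhg6 stood at 6.89 and 8.84 in those IgG libraries against 7.54 to 10.1 in controls. Over the whole set, 12 of the 149 lincRNAs were more than 1 log2 unit lower with IgG in both pair 1 and pair 3 (8.05%, where all genes tested gave 1.83%), and 0 in both pair 2 and pair 4 (all genes 0.0684%). The 12 were Neat1, Miat, Meg3, Snhg12, Snhg20, Epb41l4aos, Mir142hg, Mir17hg, E130102H24Rik, Gm26532, Gm12319 and Gm42047, the last on 1 to 7 counts. Of these, 5 hold an annotated miRNA of the mouse annotation, and Gm26532 shares only 2 bases with Mir24-2. Only 3 lincRNAs, Gm36161, Gm44751 and Gm26510, were more than 1 log2 unit higher in both pairs 1 and 3 (2.01%, all genes 0.798%). Gm26510 went from 9.33 to 23.0 in pair 1 and from 12.3 to 37.1 in pair 3, beside 10.1 to 10.1 and 11.5 to 15 in pairs 2 and 4. Its counts, 2824 in all, followed those of the opposite-strand pseudogene Gm9320, 2994 in all and at most 34 apart in any library, with which it shares 163 exonic bases. Gm9320 went from 10.7 to 23.4 in pair 1 and from 13.2 to 37.0 in pair 3, so the higher values cannot be assigned to the lincRNA.

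**Figure D3:**
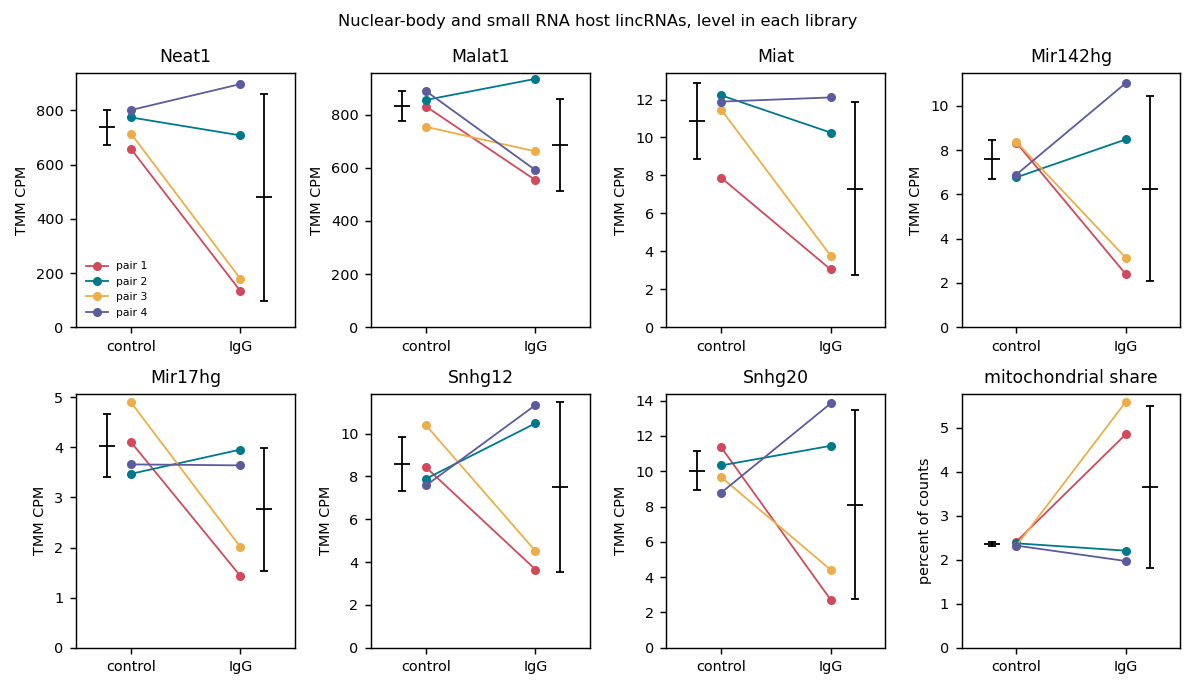
Level (TMM CPM, linear axes from 0) of 7 nuclear or small-RNA host lincRNAs in each library, and the share of counts from mitochondrially encoded genes, with lines joining a pair and bars for mean ± SD (n = 4). IgG libraries 1 and 3 are low for the 7 host and nuclear RNAs and high for the mitochondrial share. Malat1 is also low in IgG library 4, and is lowest in IgG libraries 1 and 4.

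The IgG libraries of pairs 1 and 3 are the same 2 whose mitochondrial share was 4.85% and 5.59%. Summed oligodendrocyte-lineage and astrocyte markers were low in the same 2 libraries. Those of border-associated macrophages lay above every control there, at 441 and 428 CPM, and fibroblast sums lay within the control range. The neuronal sum lay below every control in IgG library 1 but not in IgG library 3. Of the 12 microglial markers, Trem2 lay below every control in both. The oligodendrocyte-lineage sums there were 905 and 916 CPM, below every control, and 4 of the 8 markers (Mbp, Olig1, Olig2 and Sox10) lay below every control in both. Mbp, the gene of myelin basic protein, measured 604, 920, 631 and 815 TMM CPM in controls and 417, 861, 435 and 858 with IgG. The astrocyte sums were 149 and 165 CPM, again below every control, with 2 of the 8 markers (S100b and Aldoc) below every control in both. Aldh1l1 went the other way, at 10.2 and 12.5 TMM CPM against 7.19 to 9.95 in controls. So did Aqp4 in IgG library 3, at 6.48 against 4.05 to 5.72. The part of the mitochondrial share and of cell makeup in the low nuclear and host RNAs was not tested. The 149 lincRNAs took 0.484% to 0.533% of counts in controls and 0.377%, 0.492%, 0.401% and 0.516% in IgG libraries 1 to 4. Without Malat1 and Neat1 the shares were 0.328% to 0.357% in controls and 0.314%, 0.322%, 0.323% and 0.368% with IgG, so most of the gap in IgG libraries 1 and 3 lay in these 2 RNAs. With mitochondrial genes left out of the total, the shares of IgG libraries 1 and 3 were 0.396% and 0.425%, against 0.496% to 0.546% in controls. Changes within pairs also followed base composition in a weak and changing way. Spearman's rho across the 149 lincRNAs was taken between the log2 change and the GC content of the longest transcript. It was -0.31, -0.25, -0.29 and 0.31 in pairs 1 to 4. For exon length rho was 0.01, -0.03, 0.01 and -0.27. Both are descriptions over genes that share their libraries.

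**Figure D4:**
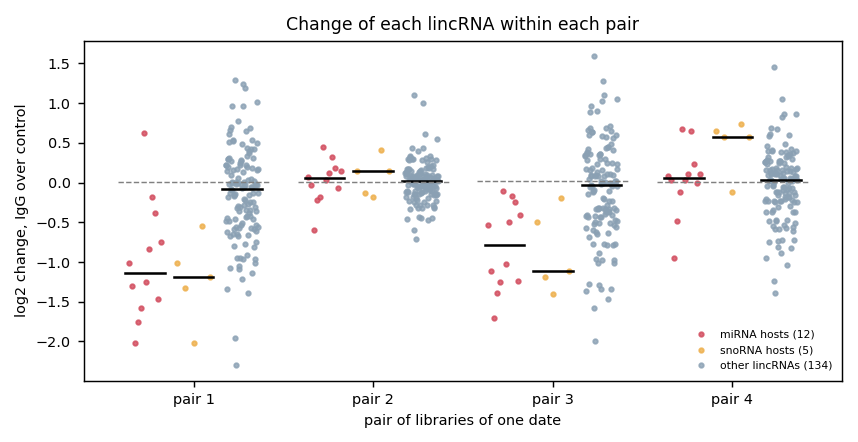
Log2 change (IgG over control, prior count 2) of each lincRNA within each pair, with miRNA hosts, snoRNA hosts and the other lincRNAs apart, black bars for medians and dashed lines for the median of all genes tested. Host medians lie between -1.19 and -0.78 in pairs 1 and 3 and between 0.05 and 0.57 in pairs 2 and 4; Snhg20 and 2900076A07Rik appear in both host groups.

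AW112010 was the only lincRNA on the lists of characterised genes past adjustment in the paired test. The innate immune list had 6 of its 14 symbols among the 149, of which AW112010 rose past adjustment and 0 fell, with a median of -0.40. Besides Neat1, Mir142hg, Mir17hg and Pvt1 it held Gm14005 (Morrbid, a regulator of myeloid cell survival), at 2.3 to 3.83 TMM CPM in controls and 2.03 to 4.12 with IgG (log2 fold change 0.03, SE 0.24). The list of other characterised lincRNAs had 7 members and 0 past the test. Norad (2900097C17Rik), the cytoplasmic RNA that binds Pumilio proteins, was among the steadiest, at 189, 184, 177 and 177 TMM CPM in controls and 211, 186, 199 and 177 with IgG (log2 fold change 0.09, SE 0.09). Part of its reads could also fit Gm7292, whose transcript matches it at 99.2% identity over 2537 bases. 9330175E14Rik, which starts beside the interferon-induced gene Nlrc5 and overlaps 78 of its exonic bases, had -0.23 (SE 0.15) where Nlrc5 had 0.07. Of the lincRNAs, 4 lay within 100 kb of an interferon-stimulated gene of the list; beside Gm44148 and 9330175E14Rik these were Gm16092 near Sp110 (0.31, SE 0.20) and Gm45752 near Psmb10 (0.00, SE 0.12).

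The most abundant lincRNA genes include several whose counts belong in part to other genes. Gm26619 had the same counts as Gm10260 in each of the 8 libraries, 52707 in all. Gm10260 is a gene on the opposite strand, similar in sequence to the ribosomal protein gene Rps18 (99.1% identity over 542 bases in Gm26619), and equal counts on opposite strands mean that reads were given to both genes without regard to strand. Levels of Gm26619 were therefore 270 to 301 TMM CPM in controls and 271 to 374 with IgG, and cannot be assigned to the lincRNA. Gm42418 and AY036118, at 549 to 686 and 483 to 616 TMM CPM in controls, lie on each other's opposite strands and on an annotated ribosomal RNA, CT010467.1. They had log2 fold changes of 0.10 (SE 0.09) and 0.13 (SE 0.09). Gm26917, which lies beside them at 61.0 to 65.2 TMM CPM in controls, had 0.03 (SE 0.13), and 1700020I14Rik, at 91.9 to 104 in controls, had -0.08 (SE 0.13). Per kilobase of exon, AY036118 (618 CPM per kb), Gm42418 (348), Gm26619 (273) and Gm28901 (150.5) came before Malat1 (109). Neat1 (29.3) was preceded also by Gm44662 (94.2), Gm44036 (69.2), AU020206 (46.6), Norad (38.2) and Gm44148 (34.6), and the median lincRNA had 2.72. In all, 88 of the 149 share exonic bases with another gene that has counts, and for 62 that gene held at least 50% as many counts. For 27 of the 149, a gene elsewhere matched at 95% identity or more over at least 200 bases. In the 60 lincRNAs that share no exonic bases with any gene, the median log2 fold change was -0.08 and AW112010 was the sole one past adjustment.

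Changes of neighbouring coding genes were set beside those of the lincRNAs. Of the 149, 94 lay within 10 kb of a coding gene and 23 had a divergent coding partner within 1000 bases. Among the 22 divergent pairs with both genes tested, 12 had log2 fold changes of the same sign, and Spearman's rho between them was 0.02. For the nearest coding gene the same count was 78 of 130 and rho was 0.29, a description over genes that share their libraries and, for overlapping genes, their reads.

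Most lincRNAs were steady between the control libraries, with a median ratio of highest to lowest control of 1.29. Gm42047 (chr8:121833247-121841178) was the exception, singled out after its values were seen. It measured 0.207, 21.8, 0.293 and 49.6 TMM CPM in controls and 0.0462, 22.7, 0.0491 and 47.5 with IgG. Pairs 1 and 3 hold 5, 7, 1 and 1 counts and pairs 2 and 4 between 483 and 1151, while IgG and control libraries of pairs 2 and 4 stood together. The next widest was Gm36161, where the ratio was 8.26 and the high pairs were 1 and 3. Gm42047 has 8 genes elsewhere of 95% identity or more, and its longest transcript matches the lincRNA Gm48362 over 64.2% of its length. Summed oligodendrocyte-lineage markers split the pairs in the same way, at 1071 and 1107 CPM in the controls and 905 and 916 in the IgG libraries of pairs 1 and 3, and at 1457 to 1683 in pairs 2 and 4; the part of cell makeup in either lincRNA was not tested. Over all genes tested, 12 had every library of pairs 2 and 4 at least 2 times as high as every library of pairs 1 and 3, and 10 the reverse, and Gm42047 was the only lincRNA in either count.

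**Figure D5:**
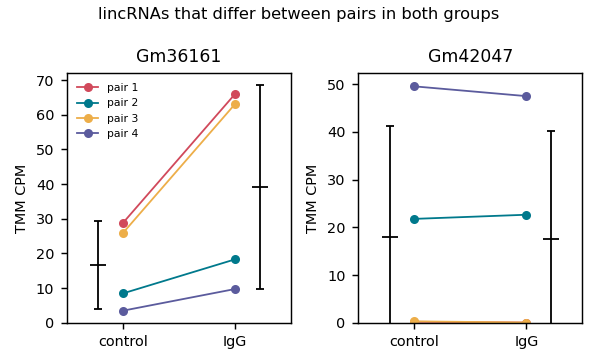
Level (TMM CPM, linear axes from 0) of Gm36161 and Gm42047 in each library, with lines joining a pair and bars for mean ± SD (n = 4), which for Gm42047 reach below the axis. Gm36161 is higher in pairs 1 and 3 and rises with IgG in each pair; Gm42047 is at or near 0 in pairs 1 and 3 and between 21.8 and 49.6 in pairs 2 and 4.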

How the data were processed

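The deposited values are counts for Ensembl genes, which the authors made with HISAT2 2.2.1, SAMtools 1.12, Picard 2.26.3 and featureCounts on GRCm38 (per the submitters' processing notes); annotation release, strand setting and handling of reads with several alignments are not given in the sources used here. Symbols, biotypes, exons and positions came from GENCODE M21, which matched 55144 of 55385 genes. After filterByExpr and TMM scaling, 17537 genes entered edgeR's quasi-likelihood fit (version 4.0.16, R version 4.3.3) with a term for the replicate number, followed by Benjamini-Hochberg adjustment over all of them. Same-numbered libraries share a date in the labels, and their deviations from the group means correlated at 0.41, 0.33, 0.26 and 0.32 across 15669 genes, against -0.34 to 0.20 between numbers. Levels are TMM-scaled CPM. Changes within a pair used a prior count of 2. Similar transcripts were found with blastn 2.17.0, and copies at least 95% identical were kept. Promoters and miRNAs came from RefSeq.

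The lincRNAs and gene lists were chosen with earlier results of these data known. Named are the 10 most abundant members, those on the lists, those past either threshold, the 5 largest rises and falls alike in all 4 pairs, those at the edge of the threshold and those whose nearest coding gene within 10 kb is interferon-stimulated; others are named after their values were seen (Gm42047, Gm26510, Gm20300, Gm26532, Gm12319, Gm16092, Gm45752, Gm44662, Gm44036, Gm7292 and C030034L19Rik). No other per-sample column was left out. Alternatives were other tests (DESeq2 1.42.0, limma 3.58.1 voom), scalings, filters, CPM thresholds and a length and GC correction (lowess span 0.3), and leaving out each pair or library; pairs 2 and 4 alone and lincRNAs without exon overlap were added after the data were seen. Counting error only is covered by the 3-count floor.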

Additional observations from a re-analysis of the deposited data

Results flagged for a closer look

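Of 80 groups of 4 libraries examined for the 40 named lincRNAs, 2 held a library set apart from the other 3. The measure was its gap over the range of the group, and chance flags about 1 in 20 groups. 9330175E14Rik was lowest in control replicate 2, at 6.40 TMM CPM, where the other controls lay between 6.80 and 6.83. That gap is small in size, since the highest control was 1.07 times the lowest. Gm37233 was lowest in control replicate 1, at 2.61 TMM CPM, where the others lay between 3.81 and 4.05.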

How the results depend on the processing

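The rises of Gm36161 and AW112010 kept their sign in all 23 alternatives, with log2 fold changes from 0.86 to 1.64 and from 0.69 to 0.95. Past adjustment, 2 lincRNAs were higher in the paired fit, 0 without the replicate block, 4 with the likelihood ratio test and 4 with DESeq2, 1 under total-count scaling, 5 with no filter on low counts (and 2 lower, Neat1 and Miat) and 1 among lincRNAs without exon overlap. By the p and fold criterion, 4 were higher, 1 without the replicate block and 1 without exon overlap. Lower by that criterion were 0 in the paired fit, 2 with the likelihood ratio test, 1 with DESeq2 and 8 with no filter. Leaving out a pair or library gave 0 to 2 higher past adjustment, and 1 to 8 higher and 0 to 5 lower by the criterion; without pair 2, 0 passed adjustment, and without pair 4 the criterion took 7 higher and 5 lower. The median of the lincRNAs ran from -0.15 to -0.05 when a pair or library was left out. Pairs 2 and 4 alone gave a median of 0.014, with 1 lower past adjustment and 1 by the criterion, C030034L19Rik (15.2 and 6.46 TMM CPM with IgG against 17.3 and 17). Without the replicate block, 9 lincRNAs were higher and 1 lower at an unadjusted p below 0.05, against 10 and 7 with it. Over all genes the paired test called 69, the likelihood ratio test 327, DESeq2 231, total-count scaling 37, no filter 376, the length and GC correction 197, and leaving out a pair 0 to 182; the criterion gave 320, 148 without the block and 762 without pair 4. Total-count scaling moved the median of all genes to -0.11 and of the lincRNAs to -0.21. The cause of these shifts was not tested. The SE of a lincRNA's log2 fold change ran from 0.08 to 0.48, with a median of 0.19.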
